A study of Mus musculus with 2 samples.

Results

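MC38 is a mouse colon adenocarcinoma line that is grown as a transplanted tumour, and the data are 2 droplet single-cell RNA libraries of dissociated MC38 tumours. One library is labelled Mbtps1 WT and is called control here. The other is labelled Mbtps1 KD and is called knockdown, although the series text speaks of a knockout, and the labels name no vector, guide, clone, host strain, age or further treatment. Mbtps1 encodes site-1 protease, a Golgi enzyme that cuts membrane-bound transcription factor precursors. There is 1 library per group, so no difference between the groups has a replicate check, and every 95% interval covers counting error only.

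The cells described here are the tumour cells richest in H19, Ogn, Sdc2 and Matn2 RNA, called H19-rich cells. A barcode with at least 2000 UMIs (unique molecular identifiers, each marking a captured RNA molecule) and at most 20% mitochondrial UMIs was taken as a tumour cell if it held at least 3 UMIs of the tumour genes Hmga2 and Rhox5. Those UMIs also had to outnumber the UMIs of the macrophage genes C1qa, C1qb and C1qc, with at most 1 UMI of the leukocyte gene Ptprc. Of 10185 tumour cells in both libraries, the 15% with the most H19, Ogn, Sdc2 and Matn2 UMIs per 10000 UMIs were selected on those measured values and called H19-rich. They were 1527 cells, 1154 of control and 373 of knockdown, and 8658 other tumour cells remained. The limit lay at 26.9 UMIs per 10000, the 20 cells just inside it held 26.9 to 27.2 and the 20 just outside held 26.6 to 26.9. No barcode sequence was shared between the H19-rich cells of the 2 libraries, and 5 were shared between all tumour cells.

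H19 is a long noncoding RNA of an imprinted locus that it shares with the growth factor gene Igf2. It is abundant in the embryo, is silenced in most adult tissues and is found again in many tumours. Ogn encodes osteoglycin, a small leucine-rich proteoglycan that binds collagen fibrils. Sdc2 encodes syndecan-2, a cell-surface heparan sulphate proteoglycan, and Matn2 encodes matrilin-2, a filament-forming adaptor of the matrix.

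The 2 libraries were near equal in total depth, with 177399315 UMIs in control and 174190399 in knockdown. The H19-rich cells had a median of 18502.5 UMIs in control and 12418 in knockdown, against 24612.5 and 15056 in the other tumour cells. They were therefore shallower than the other tumour cells, while macrophages were shallower still. Scrublet called 4 of the 1154 and 7 of the 373 H19-rich cells doublets. In barcodes of at most 100 UMIs, which hold free RNA, immune genes were at 3036 CPM (the UMIs of a gene or list, scaled to a common total for each sum) in control and 2496 in knockdown, and they stood at 68.3 and 111 CPM in the H19-rich cells. By those genes, free RNA made up 2.25% and 4.44% of the UMIs of H19-rich cells, and 2.55% and 4.24% of those of the other tumour cells.

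The markers that chose the cells are given as a description. H19 was at 2999 CPM in the H19-rich cells of control and 2911 CPM in those of knockdown, against 231 and 110 CPM in the other tumour cells. Ogn was at 624 and 596 CPM against 134 and 69.0 CPM. Sdc2 was at 1065 and 758 CPM against 383 and 262 CPM, and Matn2 at 495 and 419 CPM against 177 and 120 CPM. H19 thus gave most of the score, and it made up 57.9% of the marker UMIs of H19-rich cells in control and 62.1% in knockdown.

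Because the rule chose cells partly on H19, the values of this paragraph are a description and not a test. H19 RNA was concentrated in these cells. They held 79.3% of the tumour H19 UMIs of control, with 22.8% of the tumour UMIs, and 59.2% of those of knockdown, with 5.21% of the tumour UMIs. An H19 UMI was found in 97.1% of the H19-rich cells of control and 91.4% of those of knockdown, and in 65.5% and 34.3% of the other tumour cells. After every cell was thinned to 2000 UMIs, the shares were 87.7% and 86.6% against 25% and 12.9%. Macrophages, which should lack H19, had, without thinning, an H19 UMI in 27.7% and 14.0% of cells at median depths of 6544.5 and 4630 UMIs and an H19 level of 54.2 and 32.3 CPM. The other tumour cells, at 231 and 110 CPM, lay above that level. Barcodes with any Hmga2 or Rhox5 UMI were not taken as macrophages, so the macrophage level may be too low as a measure of free H19 RNA. When each UMI was put at random into 1 of 2 sets, and 1 set chose the cells, the other set gave H19 at 2957 CPM in control and 2802 CPM in knockdown.

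**Figure D1:**
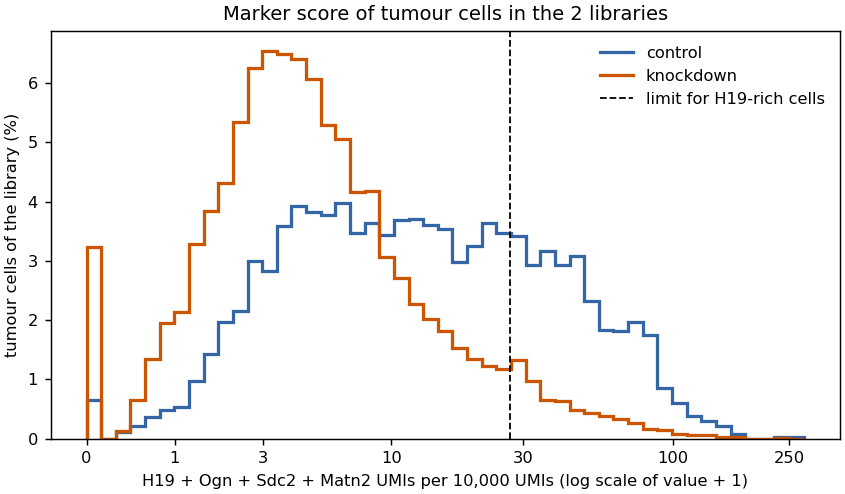
Distribution of the marker score (H19, Ogn, Sdc2 and Matn2 UMIs per 10000 UMIs, log scale of the value plus 1) over the tumour cells of control (blue, 4124 cells) and knockdown (orange, 6061 cells), in percent of the library's tumour cells. The dashed line is the limit for H19-rich cells at 26.9, beyond which lie 28.0% of the control and 6.15% of the knockdown cells.

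H19-rich cells took a smaller share of the knockdown tumour cells than of the control tumour cells. They were 28.0% of 4124 tumour cells in control (95% Clopper-Pearson interval 26.6 to 29.4%) and 6.15% of 6061 in knockdown (5.56 to 6.79%). The ratio of the shares, knockdown over control, was 0.220. Of all barcodes past the UMI and mitochondrial limits, tumour or host, they were 10.4% in control and 2.85% in knockdown. The whole score distribution lay lower in knockdown, with a median of 4.46 UMIs per 10000 against 12.3, and no gap in it separated the H19-rich cells from the rest, as the plot of the score shows.

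The smaller share was seen with each marker left out of the score in turn, where the ratio lay between 0.222 and 0.249. Among cells of 10000 to 20000 UMIs in both libraries it was 0.149. Depth, tumour cell number and the Mbtps1 label all differ between the same 2 libraries, so they cannot be told apart.

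Mbtps1 itself was lower in the knockdown library. In H19-rich cells it was at 31.3 CPM in control (95% Poisson interval 29.0 to 33.7) and 15.3 CPM in knockdown (12.1 to 19.1), a ratio of 0.490. The other tumour cells had 28.0 and 12.2 CPM, and macrophages had 17.97 and 19.9 CPM. The labelled difference was therefore present in H19-rich cells and in the other tumour cells, and macrophages did not show it.

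The tumour label was checked against host markers. Xist, which female host cells transcribe from the silent X chromosome, was at 2.48 CPM in the H19-rich cells of control and 6.49 CPM in those of knockdown, against 586 and 546 CPM in macrophages. Hmga2 and Rhox5 were used to choose tumour cells and so cannot check the label. Hmga2 was at 321 CPM in H19-rich cells of control and 541 CPM in those of knockdown, lower than the 512 and 745 CPM of the other tumour cells. Rhox5 was at 481 and 439 CPM against 516 and 422 CPM. The 17 epithelial genes examined, keratins and cadherin among them, summed to only 1.74 and 2.16 CPM in the H19-rich cells, and to 2.74 and 2.56 CPM in the other tumour cells. The defining epithelial markers of a colon adenocarcinoma were therefore near 0 in all tumour cells of both libraries.

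Markers of fibroblasts moved with the H19-rich cells. Of 12 fibroblast markers 7 were compared, and 6 of them, Pdgfra, Dpt, Lum, Dcn, Mfap5 and Gsn, were at least 1.5-fold higher than in the other tumour cells in both libraries, as were 5.54% of all genes compared. The summed level of all 12 was 2041 CPM in H19-rich cells of control and 2267 CPM in those of knockdown, against 1025 and 989 CPM in the other tumour cells. It was 12940.4 CPM in 78 control and 56 knockdown barcodes called fibroblasts, which were chosen for Xist and these markers. No marker of the list was at 0 in H19-rich cells. Genes stood differently to the level of those fibroblasts. Col1a1, a chain of the main collagen of fibroblasts, was at 189 and 87.7 CPM in H19-rich cells, against 9741 CPM in those fibroblasts. It was at 57.3 and 15.7 CPM in the other tumour cells. Aspn was at 376 and 304 CPM in H19-rich cells against 356 CPM in those fibroblasts, and Mfap4 at 248 and 70.2 CPM against 306 CPM. Xist was at 2.48 and 6.49 CPM against 688 CPM. The part of fibroblast RNA in the results below was not tested. With tumour cells limited to those without any Xist UMI, the share ratio was 0.216 and 873 genes differed, close to the values over all cells. However, only 45 of the 1154 H19-rich cells of control and 17 of the 373 of knockdown held a Xist UMI. That limit thus left out few of these cells and cannot decide the part of fibroblast RNA.

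Genes were then compared between H19-rich and other tumour cells within each library. A gene was compared if it had at least 50 UMIs in the tumour cells and a mean of at least 10 CPM over the 4 sums, and it was counted as different at 1.5-fold the same way in both libraries. Of 8282 genes, 459 (5.54%) were higher and 426 (5.14%) were lower in H19-rich cells of both libraries, and 1 gene passed in opposite directions. Taken singly, control had 8.31% of genes higher and 6.92% lower, and knockdown had 7.63% and 6.77%. The lists below hold a small part of these genes, and no theme is given to the rest. Each count of list members higher or lower in both libraries stands beside the shares of 5.54% and 5.14% over all genes compared. A gene could pass the CPM minimum through its level in H19-rich cells alone, so the counts within lists are a description of the genes that passed. The 4 markers and the genes that defined tumour cells are outside these counts.

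**Figure D2:**
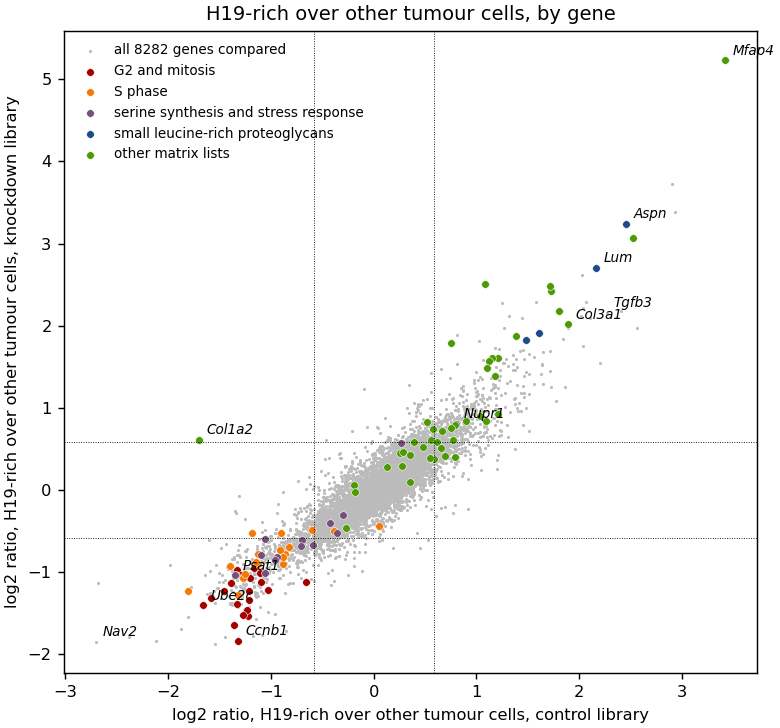
Log2 ratio of each of 8282 genes, H19-rich over other tumour cells, in control (x axis) and knockdown (y axis), where each dot is a gene, coloured dots are members of the named lists and dotted lines mark 1.5-fold. Matrix genes such as Mfap4, Aspn and Lum lie at the upper right, G2 and mitosis genes at the lower left, and Col1a2 is the 1 gene past the line in opposite directions.

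Elastic-fibre and microfibril genes were among the highest ratios. Mfap4, a glycoprotein of elastic fibres, was at 248 CPM in H19-rich cells of control against 23.1 CPM in the other tumour cells, and at 70.2 against 1.87 CPM in knockdown. The ratio was 10.7 (10.2 to 11.3) in control and 37.6 (31.3 to 45.3) in knockdown. Emilin1, another elastic-fibre glycoprotein, was at 31.2 against 5.43 CPM and at 16.7 against 1.998 CPM, ratios of 5.74 and 8.37. Of 11 matrilin-family and fibrillar adaptor genes compared, 6 were higher in both libraries (Mfap4, Mfap5, Emilin1, Fbln5, Ltbp3 and Ltbp4) and 0 were lower. Ltbp3 and Ltbp4, which hold latent TGF-beta in the matrix, had ratios of 1.86 to 2.31. Thbs2, a matricellular protein of the same list, was at 120 and 122 CPM against 144 and 169 CPM, so the list did not move as 1 block.

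Of 14 small leucine-rich proteoglycan genes, Ogn included, 4 besides Ogn passed the CPM minimum, and these were higher in both libraries. Lum passed it through H19-rich cells, being at 5.50 and 2.24 CPM in the other tumour cells. Aspn, which encodes asporin, a collagen-binding relative of osteoglycin, was at 376 CPM against 68.4 CPM in control and at 304 CPM against 32.2 CPM in knockdown. Dcn (decorin) was at 857 against 280 CPM and at 930 against 248 CPM. Lum (lumican) and Bgn (biglycan) had ratios of 4.50 and 2.80 in control and of 6.51 and 3.55 in knockdown. The list median was a log2 ratio of 1.89 in control and 2.30 in knockdown, while the median over all genes compared was 0.06 and 0.03.

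Some collagens were higher as well. Col3a1, the chain of the pliable collagen III, was at 4099 CPM in the H19-rich cells of control against 1103 CPM in the other tumour cells, and at 3595 against 888 CPM in knockdown. Col5a2, a chain of the fibril-nucleating collagen V, had ratios of 3.49 and 4.54. Of 20 collagen and collagen-processing genes compared, 8 were higher in both libraries (Col1a1, Col3a1, Col5a2, Col5a3, Col6a1, Col6a2, Col8a1 and Loxl1) and 0 were lower in both. The prolyl hydroxylases P4ha1 and P4ha2 and the collagen chaperone Serpinh1 had ratios between 1.31 and 1.77, and none of them passed in both libraries. Col1a2 was an exception, with 8.45 against 27.5 CPM in control and 24.6 against 16.1 CPM in knockdown. A few cells hold most of its UMIs, since 5 of the 373 H19-rich knockdown cells had 96 of its 125 UMIs.

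Several adhesive glycoproteins and enzymes that cut matrix were also higher. Fn1 (fibronectin) was at 2476 against 1073 CPM in control and at 1822 against 599 CPM in knockdown. Of 12 adhesive glycoprotein genes, 8 were higher in both libraries (Fn1, Tnc, Sparc, Postn, Vcan, Lamc1, Hspg2 and Ccn4) and 0 were lower. Of 10 matrix proteases and inhibitors, 5 were higher, namely the gelatinases Mmp2 and Mmp9, the membrane-bound Mmp14, and Adamts1 and Adamts5, while the inhibitors Timp1 and Timp2 had ratios of 1.10 to 1.25. Enpp2 (autotaxin, which makes the lipid signal lysophosphatidic acid) had ratios of 7.67 and 10.4, and Prg4 (lubricin) had 7.47 and 13.2. Dpt (dermatopontin), Lrrc17 and Kif26b were between 3.72-fold and 6.15-fold higher.

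Several TGF-beta signalling genes were higher. Ligands of this family bind paired serine/threonine kinase receptors that activate SMAD proteins, and they are known inducers of matrix genes. Tgfb3, the ligand TGF-beta 3, was at 235 CPM against 48.7 CPM in control and at 106 against 23.9 CPM in knockdown, ratios of 4.82 (4.62 to 5.03) and 4.46 (4.05 to 4.90). Among the receptors, Tgfbr2 had ratios of 1.92 and 2.07 and Tgfbr3 of 1.76 and 1.84, whereas Tgfbr1 had 1.30 and 1.004. The signal transducer Smad3, the activin subunit gene Inhba, the ligand Bmp2, the protease Bmp1 and the target Id3 were also at least 1.5-fold higher in both libraries. In all, 8 of 17 genes compared were higher and 0 were lower in both, and the inhibitor Smad7 had ratios of 0.95 and 0.67.

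Of 16 mesenchymal transcription factor genes, Zeb1, Zeb2, Prrx1, Ebf1 and Tcf4 were higher in both libraries and Hmga1 was lower. Ebf1 was at 349 against 140 CPM and at 297 against 68.4 CPM. Guidance receptors were mixed. Robo2, a receptor for SLIT proteins, was at 214 against 52.1 CPM in control and 123 against 26.5 CPM in knockdown, and Robo1, Plxnd1, Epha7 and Pcdh7 were also higher. Nav2, a microtubule-linked neuron navigator gene, had the lowest control ratio to the other tumour cells of the genes named, at 4.88 against 31.8 CPM and 19.3 against 69.6 CPM, and Efnb2 was lower as well, so that of 20 genes 5 were higher and 2 lower. Pcdh9, a protocadherin outside the list, had ratios of 4.06 and 4.34.

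**Figure D3:**
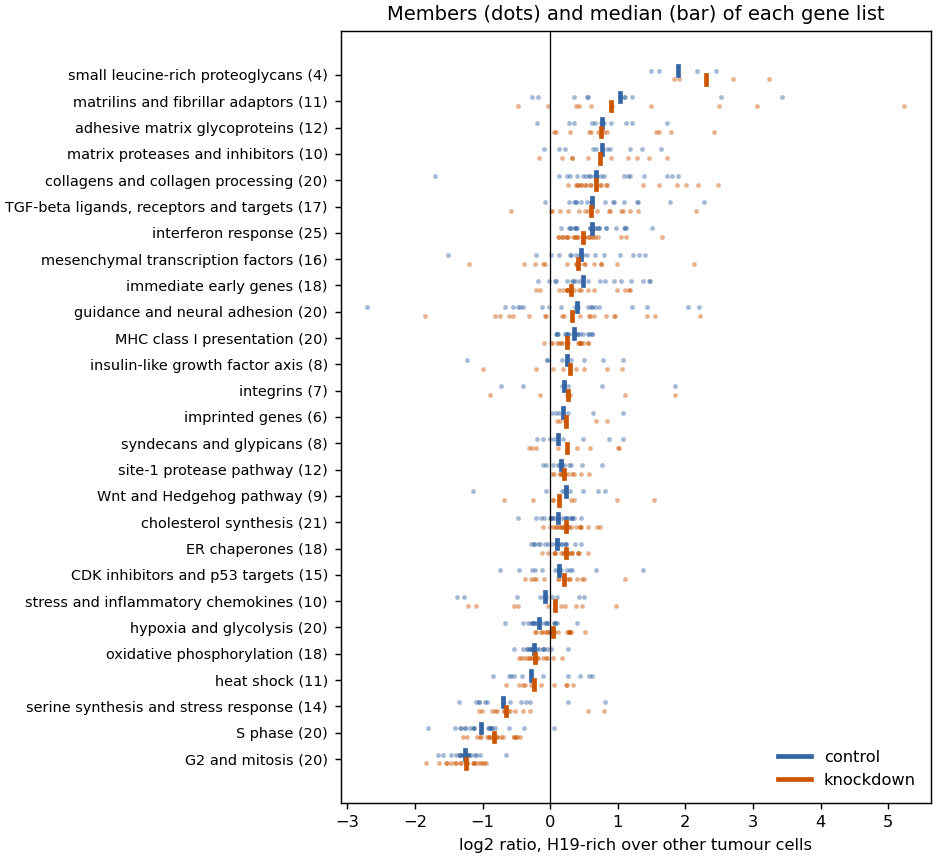
Log2 ratio of H19-rich over other tumour cells for the members of each gene list (dots, number of genes compared in brackets) and the list median (bars), in control (blue) and knockdown (orange). Small leucine-rich proteoglycans have medians of 1.89 and 2.30 and stand highest, and G2 and mitosis genes have medians of -1.26 and -1.24 and stand lowest.

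Genes of cell division were lower in the H19-rich cells. All 20 genes of the G2 and mitosis list were at least 1.5-fold lower in both libraries, beside 5.14% of all genes, with list medians of -1.26 and -1.24 on the log2 scale. Ube2c, the ubiquitin-conjugating enzyme of the anaphase-promoting complex, was at 73.1 CPM against 231 CPM in control and at 92.1 against 244 CPM in knockdown. Top2a (topoisomerase II alpha) was at 105 against 242 CPM and at 148 against 349 CPM, and Ccnb1 (cyclin B1) at 17.7 against 44.3 CPM and at 13.6 against 48.6 CPM. The summed list stood at 868 CPM in H19-rich and 2051 CPM in other tumour cells of control, a ratio of 0.424 (0.417 to 0.430). In knockdown it stood at 1103 and 2495 CPM, a ratio of 0.442 (0.430 to 0.454). These ratios differed between kinds of H19-rich cell, as given further below.

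At equal depth fewer H19-rich cells carried this programme. After thinning to 2000 UMIs, 9.19% of H19-rich cells of control (7.58 to 11.0%) and 15.8% of those of knockdown (12.3 to 19.9%) held at least 5 UMIs of the list. In the other tumour cells the shares were 28.3% (26.7 to 29.97%) and 37.3% (36.03 to 38.6%). Without thinning, a UMI of the list was seen in 90.6% and 89.3% of H19-rich cells and in 96.5% and 97.3% of the others. A UMI of the list remained after thinning in 39.4% and 53.1% of H19-rich cells and in 64.4% and 77.3% of the others. At each of these cuts the share was lower in H19-rich cells.

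The promoters of some of these genes are shown as a description. Each line gives the 120 bases before the RefSeq start of 1 gene on GRCm38.p6, read 5′ to 3′ on the gene's strand, and capitals mark TTTGAA or its reverse complement TTCAAA, the core of the cell cycle genes homology region. Cdc20, which activates the anaphase-promoting complex, lies at chr4:118437344-118437463 on the minus strand. Cdk1, the kinase that starts mitosis, lies at chr10:69352913-69353032 on the minus strand. Kif11, the motor that separates spindle poles, lies at chr19:37376262-37376381 on the plus strand, and Ube2c at chr2:164769809-164769928 on the plus strand.
Cdc20: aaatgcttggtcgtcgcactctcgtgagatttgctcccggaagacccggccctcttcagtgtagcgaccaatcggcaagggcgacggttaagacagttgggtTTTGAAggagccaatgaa
Cdk1: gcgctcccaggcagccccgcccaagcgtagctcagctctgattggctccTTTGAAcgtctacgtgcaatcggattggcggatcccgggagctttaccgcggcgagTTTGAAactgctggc
Kif11: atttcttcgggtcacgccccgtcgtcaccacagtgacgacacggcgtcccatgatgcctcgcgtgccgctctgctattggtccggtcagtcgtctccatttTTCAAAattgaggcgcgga
Ube2c: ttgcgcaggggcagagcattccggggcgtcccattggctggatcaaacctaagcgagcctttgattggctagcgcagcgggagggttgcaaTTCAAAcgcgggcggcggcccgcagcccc
On either strand, this motif was found in 13 of the 17 list promoters matched by symbol, taken from 250 bases before to 50 after the start. That is 76.5%, against 20.2% of 27025 promoters in the table, 14.0% of 6644 matched promoters of genes compared and 2 of 16 S phase promoters. The motif is a match of letters and not a measured site. Its share in the list does not depend on RNA levels in these cells, so it describes the list only. Why the genes were lower was not tested.

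S phase genes were lower by less. Of 20 genes of DNA replication, 15 were lower in both libraries and 0 were higher, with medians of -1.02 and -0.82. Rrm2, a subunit of ribonucleotide reductase, was at 31.4 against 79.35 CPM in control and at 55.7 against 114 CPM in knockdown. The helicase subunit Mcm5 had ratios of 0.40 and 0.41. Ccnd1 (cyclin D1), which pairs with CDK4 and CDK6 in G1 and is in neither list, was at 135 against 354 CPM and at 264 against 618 CPM. The inhibitors and p53 targets did not mirror this, since of 15 compared only Btg2 was higher in both libraries and 0 were lower, with Cdkn1a at 11.6 against 19.4 CPM and at 18.3 against 22.3 CPM.

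Most of the serine synthesis and amino acid stress genes compared were lower too. Psat1, Psph, Shmt2, Mthfd2, Aldh1l2, Trib3, Asns, Chac1 and Slc7a5 were lower in both libraries, 9 of 14 compared. Psat1, an enzyme of the serine pathway, was at 57.2 against 145 CPM and at 83.4 against 172 CPM, and Asns (asparagine synthetase) at 93.8 against 195 CPM and at 82.8 against 167 CPM. Nupr1, a stress-induced chromatin protein, went the other way, at 700 against 401 CPM and at 445 against 255 CPM. Phgdh, the first enzyme of serine synthesis, had ratios of 0.78 and 0.69 and did not pass.

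Some interferon-response genes were higher. Of 25 genes compared, 7 passed, beside 5.54% of all genes: Stat2, Irf7, Ifit1, Ifit2, Ifit3, Gbp5 and Cxcl9 were higher in both libraries, and 0 were lower. The list had medians of 0.62 and 0.49. Cxcl9, a chemokine that draws CXCR3-bearing lymphocytes, was at 431 against 151 CPM in control and at 294 against 93.8 CPM in knockdown. The summed 11 macrophage and monocyte markers, of which the rule limits 3, were at 139 and 166 CPM in H19-rich cells and at 144 and 170 CPM in the other tumour cells. Cxcl9 itself was at 539 and 533 CPM in barcodes of at most 100 UMIs and averaged 1941 CPM in macrophages, and the part of macrophage or free RNA in its level was not tested. The immediate early genes Fos, Egr1, Ier2, Ier5l and Btg2 were higher in both libraries, 5 of 18 compared.

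Many pathways did not differ at this threshold. In both libraries together, 0 of 20 MHC class I genes, 0 of 21 cholesterol synthesis genes, 0 of 18 ER chaperones, 0 of 12 genes of the site-1 protease pathway, 0 of 20 hypoxia and glycolysis genes and 0 of 18 respiratory chain genes passed in either direction. Their medians lay between -0.25 and 0.35 on the log2 scale. MHC class I genes still leaned higher, as in B2m, the light chain, at 3514 against 2666 CPM and at 3742 against 2747 CPM. Respiratory chain genes leaned lower, with medians of -0.25 and -0.23. The mitochondrial share of UMIs, which entered the rule, had medians of 3.29% and 2.63% in H19-rich cells and of 2.81% and 2.605% in the others.

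Smaller lists were mixed, and few of their genes passed, beside 5.54% of all genes higher and 5.14% lower. Of 8 insulin-like growth factor genes, Igf2r and Irs1 were higher and Igfbp4 was lower, and of 6 imprinted genes besides H19, Igf2r and Plagl1 were higher. Igf2, the imprinted neighbour of H19, was below the mean of 10 CPM set for the comparison, with 177 UMIs in 23 H19-rich cells of control and 42 UMIs in 1 cell of knockdown. Of 8 syndecan, glypican and heparan sulphate genes, Gpc4 and Ext1 were higher. Of 9 Wnt and Hedgehog genes, Fzd2 and Dkk2 were higher and Wnt7b was lower, and of 7 integrin genes, Itgb5 and Itgb8 were higher and Itga6 was lower. Fosl1 and Plaur were lower among 10 stress and chemokine genes, and the chaperonin Hspd1 was lower among 11 heat shock genes.

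Genes beside the markers on the chromosome were also looked at, a choice made after their values were seen. H19 lies at chr7:142575529-142578143 on the minus strand in GENCODE vM21 on GRCm38. Within 500 kb of it, 6 genes were compared, and Tnni2, Lsp1 and Ctsd were higher in H19-rich cells of both libraries. Tnni2, a troponin gene of fast muscle fibres at 131 kb, was at 26.8 against 6.38 CPM in control and at 15.5 against 3.18 CPM in knockdown. Lsp1, an actin-binding protein gene at 80.7 kb, had ratios of 2.34 and 3.29, and Ctsd, the lysosomal cathepsin D gene at 187 kb, had 1.93 and 1.99. Mrpl23, a mitochondrial ribosomal protein gene nearer to H19 at 34.8 kb, was at 128 against 134 CPM and at 130 against 122 CPM, so nearness alone did not order the ratios.

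The other markers had such neighbours as well. Aspn lies 40.5 kb from Ogn, while Cenpp, which overlaps Ogn, had ratios of 0.77 and 1.03. Cpq, a carboxypeptidase gene 48.2 kb from Sdc2, had ratios of 2.08 and 2.12. Laptm4b, a lysosomal membrane protein gene 22.4 kb from Matn2, had ratios of 1.97 and 2.02, against 0.93 and 0.98 for the ribosomal protein gene Rpl30 at 4.23 kb. Around all 4 markers, 8 of the 21 genes that passed the CPM minimum were higher in both libraries and 0 were lower, beside 5.54% and 5.14% of all genes compared. Tnni2 passed it through its level in H19-rich cells. The sources used here do not say how reads shared between overlapping genes were counted.

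The differences grew along the score rather than at its limit. The tumour cells of both libraries were cut into 10 bins of equal size by score. The summed G2 and mitosis list was at 2545 CPM in the lowest bin of control and 696 CPM in the highest, and at 2917 and 964 CPM in knockdown. Small leucine-rich proteoglycans without Ogn were at 133 and 1535 CPM in control and at 168 and 1531 CPM in knockdown. In the highest bin the proteoglycan sums were thus alike in both libraries, while the mitosis sums were higher in knockdown in the lowest and the highest bin. Far fewer knockdown cells reached the top. The genes whose level followed the bins most closely were P4hb, Col5a2, Laptm4b, Pmepa1 and Tgfb3, with Spearman coefficients of 0.991 to 0.994 over 20 points, 10 in each library. Tgfbr2, Tmbim6 and Wls tied with the last of these. Those points share libraries and are a description without a test. P4hb is a subunit of collagen prolyl hydroxylase, and Pmepa1 is a target and inhibitor of TGF-beta signalling.

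**Figure D4:**
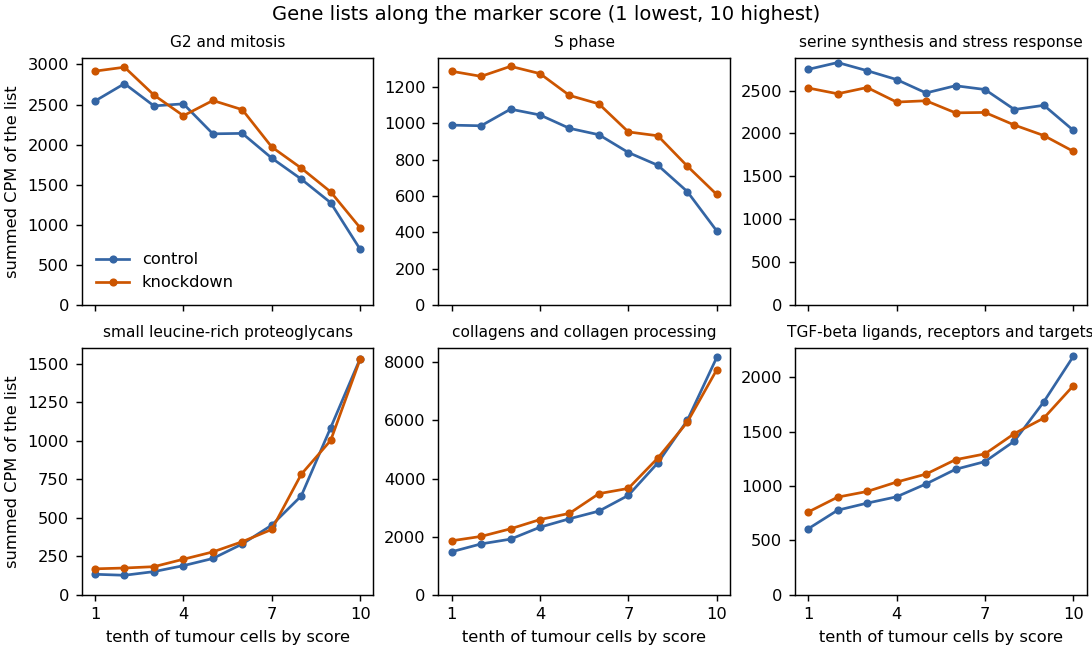
Summed CPM of 6 gene lists over 10 equal bins of the tumour cells by marker score (1 lowest, 10 highest), for control (blue) and knockdown (orange). The G2 and mitosis list goes from 2545 to 696 CPM in control and from 2917 to 964 CPM in knockdown, while small leucine-rich proteoglycans without Ogn go from 133 to 1535 CPM and from 168 to 1531 CPM.

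The H19-rich cells were not uniform in their markers. Within them, H19 and Ogn had Spearman coefficients of -0.20 over 1154 cells of control and -0.30 over 373 cells of knockdown. Over all tumour cells the coefficients were 0.39 and 0.22. Choosing cells by a sum that holds both genes lowers such a coefficient, so no conclusion on kinds of cell is drawn from it. A cell was called H19-led if it was in the top 15% of tumour cells for H19 but not for Ogn, and Ogn-led in the reverse case, a split chosen after values were seen. Control had 434 H19-led, 180 Ogn-led and 485 cells high in both, and knockdown had 183, 59 and 119. H19 was at 3730 and 3308 CPM in H19-led cells and at 400 and 221 CPM in Ogn-led cells. Sdc2, also a gene of the score, was at 917 and 572 CPM in H19-led cells and at 1352 and 1126 CPM in Ogn-led cells.

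Division genes were higher in H19-led than in Ogn-led cells. The summed G2 and mitosis list was at 1413 CPM in H19-led and 269 CPM in Ogn-led cells of control, a ratio of 5.25 (4.91 to 5.61). In knockdown it was at 1738 and 265 CPM, a ratio of 6.56 (5.70 to 7.58). Against the other tumour cells, the summed list had ratios of 0.689 in control and 0.697 in knockdown in H19-led cells, not past 1.5-fold. The same ratios were 0.131 and 0.106 in Ogn-led cells and 0.289 and 0.189 in cells high in both. All 20 genes of the list were at least 1.5-fold higher in H19-led cells of both libraries, beside 3.62% of 8282 genes. At least 5 UMIs of the list after thinning were found in 17.1% and 27.3% of H19-led cells, in 2.22% of Ogn-led cells of control and in 0 of 59 of knockdown, which allows a share of up to 5.08%. Cells high in both had 4.95% and 6.72%.

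Median depth was near equal in the 2 kinds, at 18597.5 and 18546 UMIs in control and 12857 and 11804 in knockdown. The ratio stayed above 1 under every alternative tried, from 1.77 to 8.36, and it was 2.27 and 1.77 when the H19-rich cells were chosen without H19 in the score. It was 2.04 and 3.38 when cells were chosen and measured after thinning.

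Some surface and matrix genes were higher in Ogn-led cells, and other matrix genes were higher in H19-led cells. Of 8282 genes, 59 (0.712%) were at least 1.5-fold higher in Ogn-led than in H19-led cells of both libraries. Aspn was at 647 and 636 CPM in Ogn-led cells against 166 and 110 CPM in H19-led cells. Robo2 was at 315 and 182 CPM against 141 and 73.9 CPM, the semaphorin gene Sema3c at 162 and 323 CPM against 84.8 and 123 CPM, and Itgbl1, an integrin-like secreted protein gene, at 83.3 and 261 CPM against 40.5 and 90.5 CPM. Mme (neprilysin, a cell-surface peptidase) and Lrrn4cl were also higher in Ogn-led cells. The matrix lists were split at 1.5-fold in both libraries. Aspn, Fbln5, Ccn4 and Mmp11 were higher in Ogn-led cells, and Lum, Fbln1, Postn and Mmp9 were higher in H19-led cells. None of the 20 collagen genes, 17 TGF-beta genes or 25 interferon genes passed in either direction, and both kinds stood above the other tumour cells in their summed levels. Collagens summed to 6855 and 5781 CPM in H19-led cells and to 8472 and 8523 CPM in Ogn-led cells, against 3202 and 2819 CPM.

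**Figure D5:**
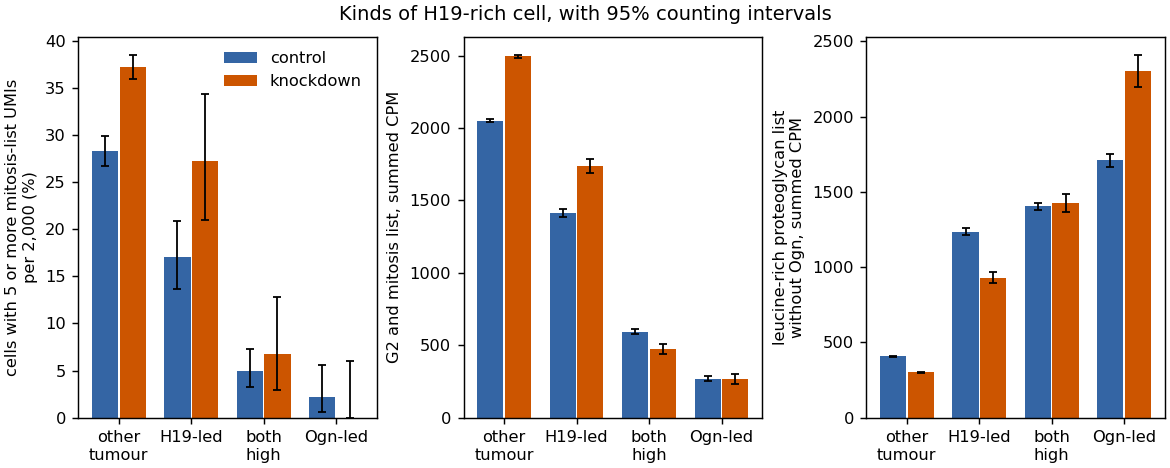
Other tumour cells and 3 kinds of H19-rich cell in control (blue) and knockdown (orange): share of cells with at least 5 UMIs of the G2 and mitosis list per 2000 (left), and summed CPM of that list (middle) and of small leucine-rich proteoglycans without Ogn (right), with 95% Clopper-Pearson or Poisson intervals. The mitosis list is at 1413 and 1738 CPM in H19-led and at 269 and 265 CPM in Ogn-led cells, and the proteoglycans are at 1234 and 930 CPM against 1709 and 2300 CPM.

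Between the libraries, the H19-rich cells of knockdown had less of several matrix and TGF-beta genes and more of inflammatory and S phase genes than those of control. Of 8282 genes, 299 (3.61%) were at least 1.5-fold higher and 160 (1.93%) lower in knockdown. Under median-of-ratios scaling the counts were 230 and 241, so the balance of directions depends on the scaling. In the other tumour cells 154 (1.86%) were higher and 118 (1.42%) lower, 3.28% in all. The difference between those counts was not tested, and the fewer UMIs of H19-rich knockdown cells move with it. The count went from 459 to 969 when the top 15% was taken within each library, to 1146 after thinning, to 972 among cells of 10000 to 20000 UMIs and to 88 at 2-fold.

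Matrix genes led the lower side. Cilp, a cartilage matrix protein gene, was at 41.4 CPM in control and 5.51 CPM in knockdown H19-rich cells, a ratio of 0.133 (0.088 to 0.194). Tnc (tenascin C) was at 46.8 and 9.64 CPM, a ratio of 0.206. Mfap4 had a ratio of 0.283, Bgn of 0.385, Col1a1 of 0.464 and Tgfb3 of 0.453, and the other tumour cells had 0.081, 0.304, 0.273 and 0.489 for the same genes. These genes were thus lower in both kinds of tumour cell. Rgcc, a cell cycle regulator, Fkbp14, a collagen-folding enzyme, and the histone gene Hist1h2bc were also lower in both. Rnf149, a ubiquitin ligase gene, was at 25.9 and 10.4 CPM in H19-rich cells and at 14.98 and 11.9 CPM in the others.

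Among the TGF-beta genes, the ligands Tgfb1 and Tgfb3, the protease Bmp1 and the target Id3 were lower in knockdown H19-rich cells. Of this list 0 genes were higher, beside 1.93% of all genes lower and 3.61% higher. In the other tumour cells 3 of the 17 genes compared were lower and 1 was higher, beside 1.42% and 1.86% of all genes. Id3, a target that blocks basic helix-loop-helix factors, was at 104 and 58.8 CPM. Col3a1, in contrast, was at 4099 and 3595 CPM, Dcn at 857 and 930 CPM, and Col6a1 at 436 and 501 CPM. Of the 20 collagen genes 2 were lower (Col1a1 and Loxl1), and Col1a2, whose few cells are given above, was higher. Most of the abundant collagen RNA of H19-rich cells was thus within 1.5-fold of control. In the other tumour cells 4 of the 20 collagen genes were lower and 0 were higher, so lower collagen genes were not particular to H19-rich cells.

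On the higher side, Cxcl2, a neutrophil-attracting chemokine, was at 4.40 and 19.5 CPM, a ratio of 4.43 (3.32 to 5.90). Its level in barcodes of at most 100 UMIs was 116 and 161 CPM and in macrophages it averaged 376 CPM, and the part of free RNA in this low level was not tested. Among cells with no mitosis UMI after thinning, an alternative chosen after seeing the data, its log2 ratio was -0.27. Nos2 (inducible nitric oxide synthase) was at 6.01 and 21.8 CPM, and Ackr3, a scavenging chemokine receptor, at 5.19 and 16.5 CPM. Krt14, a keratin of basal epithelium, was at 7.89 and 27.5 CPM in H19-rich cells and at 19.6 and 29.1 CPM in the others. Nav2 and Lrrc8d, a subunit of volume-regulated anion channels, had ratios of 3.95 and 2.84, and these were also higher in the other tumour cells, with 2.19 and 2.62. Gpr39, Afap1l2, Adcy8 and Dhdh had ratios of 3.08 to 3.66.

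Markers of other cell types moved with the inflammatory genes. The summed neutrophil markers were at 1.61 CPM in H19-rich cells of control and 9.44 CPM in those of knockdown, the T and NK cell markers at 5.75 and 22.03 CPM, and free RNA at 2.25% and 4.44% of UMIs. Their part in these differences was not tested.

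Of 10 stress and chemokine genes, 5 were higher (Cxcl1, Cxcl2, Fosl1, Ccl2 and Ccl7) and 0 were lower, beside 3.61% of all genes. In the other tumour cells 4 of the 10 were higher and 1 was lower, so this lean was not particular to H19-rich cells. Ccl2, a monocyte-attracting chemokine, was at 412 and 703 CPM in H19-rich cells and at 306 and 358 CPM in the others. Of 20 S phase genes 9 were higher in H19-rich cells and 1 (Ccne1) was lower. Uhrf1, a DNA methylation maintenance factor, was at 14.6 and 29.7 CPM. In the other tumour cells 2 S phase genes were higher and 0 were lower, and the list median was a log2 ratio of 0.42 against 0.56 in H19-rich cells. The summed S phase list was at 566 CPM in control and 894 CPM in knockdown in H19-led cells. It was at 323 and 306 CPM in Ogn-led cells and at 437 and 497 CPM in cells high in both. H19-led cells were 37.6% of the H19-rich cells of control and 49.1% of those of knockdown. The part of this mix in the S phase difference was not tested. Of 20 G2 and mitosis genes only Mki67 passed in H19-rich cells, at 27.9 and 41.9 CPM. Of 25 interferon genes 4 were lower, namely Irf7, Isg15, Ifit1 and Ifit3, and 0 were higher, beside 1.93% of all genes lower. For the same list, the other tumour cells had 2 genes lower and 2 higher. Of the site-1 protease pathway, Mbtps1 was the 1 gene of 12 that passed. Of 21 cholesterol synthesis genes only Lss passed, at 9.28 and 16.3 CPM, beside 3.61% of all genes higher, and of 18 ER chaperones 0 passed.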

How the data were processed

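The 2 tumours were measured by 10x 3' single-cell RNA sequencing and the labels' protocols give 6000 cells added per channel, with 3000 expected back. Deposited were unfiltered UMI counts of every gene and barcode, which the authors made with Cell Ranger 4 per the file headers, over 1688458 control and 1769772 knockdown barcodes. The genome build was not given in the sources used here. Of barcodes with at least 2000 UMIs, 11079 of control and 13085 of knockdown passed the mitochondrial limit, more than the cells loaded. 36 barcode sequences of at least 2000 UMIs occur in both libraries.

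The cells were chosen by the stated rule, with no clustering and no doublet removal, and Scrublet calls (scanpy 1.11.5) were left out only as an alternative. UMIs were summed over the cells of a kind within each library, and CPM refers to that sum, so fewer UMIs per cell do not lower a CPM. Ratios carry exact conditional binomial intervals, levels exact Poisson and shares Clopper-Pearson intervals (95%, scipy 1.17.1). No test between libraries or cells was made, because each group is 1 library. For a share of 0, the limit is 3 counts over the cells examined. The calculation was also run on simulated sums with Poisson counts and set fold changes. Those sums had no spread between cells, so they check the calculation only.

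Macrophages were barcodes past the same limits with at least 10 C1q UMIs and no Hmga2 or Rhox5 UMI. Fibroblasts had at least 2 Xist and 20 fibroblast marker UMIs, fewer than 10 C1q UMIs and no Hmga2, Rhox5 or Ptprc UMI. Their fibroblast marker UMIs also had to outnumber those of pericyte and of endothelial markers. Named genes were the 15 highest and lowest ratios against other tumour cells and the 10 highest and lowest between libraries, ranked by the interval end nearest 1, and the leading members of 28 lists. Members and lists were chosen with earlier results of these data known. Promoter sequences are from RefSeq and gene positions from GENCODE vM21, both on GRCm38. The alternatives tried changed the cells taken, the score genes, depth, doublets, free RNA, scaling and thresholds. A gene of the TGF-beta list is not reported here by name.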

Additional observations from a re-analysis of the deposited data

Results flagged for a closer look

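Col1a2, the second chain of collagen I, differed from its partner genes in direction. Its ratio of H19-rich to other tumour cells was 0.308 in control and 1.52 in knockdown, so it was past 1.5-fold in opposite directions in the 2 libraries. Its ratio of knockdown to control was 2.91 in H19-rich cells and 0.588 in the other tumour cells. These differences were not tested, since each group is 1 library. Single cells carried much of the RNA: the highest cell had 639 of 2136 UMIs among the other tumour cells of control, and the top 5 cells had 96 of 125 UMIs among H19-rich cells of knockdown. A Col1a2 UMI was seen in 9.27% and 8.04% of H19-rich cells and in 11.0% and 9.79% of the other tumour cells.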

How the results depend on the processing

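No paired analysis was possible because each group is 1 library with no shared replicate number, and no replicate could be left out. The ratio of shares of H19-rich cells stayed under 1 in every alternative, and it moved beyond its counting error to 0.174 and 0.249 for the top 10% and 20%, 0.266 after thinning to 2000 UMIs, 0.149 for cells of 10000 to 20000 UMIs and 0.249 without Sdc2. The 885 genes that differ from other tumour cells became 241 at 2-fold, 2563 with no CPM minimum and, in an alternative added after seeing the data, 588 among cells with no mitosis UMI when thinned. The 459 genes that differ between libraries became 88 at 2-fold, 4769 with no CPM minimum, 1146 after thinning, 972 at 10000 to 20000 UMIs and 969 with the top 15% taken within each library. The Mbtps1 ratio was 0.373 after thinning and within its counting error otherwise. The ratio of the mitosis list in H19-led over Ogn-led cells, also examined after seeing the data, moved in control to 3.65 and 3.62 for the top 10% and 20%, 4.75 within each library, 5.66 with 0 Xist UMIs, 2.04 after thinning, 2.85 at 10000 to 20000 UMIs, 2.27, 6.15, 4.78 and 4.66 with H19, Ogn, Sdc2 or Matn2 left out, 5.72 with separate sets of UMIs to choose and measure cells and 2.61 when the own top 10% marks the led cells. In knockdown it moved to 8.36, 3.27, 2.97, 3.38 after thinning, 5.53 at 10000 to 20000 UMIs, 1.77 and 5.35 without H19 or Sdc2, and 5.49 for the own top 10%. Of 1520 values of 80 named gene results 1045 stayed within their counting error and 474 moved without a change of sign, and Cxcl2 between libraries had a log2 ratio of -0.27 among cells with no mitosis UMI. Of 1539 list medians 1480 stayed and 59 moved, none to the other side. The cause of these moves was not tested. The 373 H19-rich cells of knockdown, with 5083707 UMIs, set the precision of low genes.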
